A study of Mus musculus with 6 samples.

Results

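Cd80, Cd274, Cd276, Vcam1 and Icam1 encode ligands through which tissue cells engage immune cells. They were taken by gene symbol from an RNA-seq table of cultured mouse podocytes, the epithelial cells of the kidney filter, and 4 of the 5 had values, as 5 transcripts, among 11308 genes and 21849 transcripts in the table. Icam1 has no value in the table used here and was not analysed here. The cells were MPC5, a conditionally immortalized mouse podocyte line with the strain label C57BL/6, kept in normal glucose. The samples comprised 3 that overexpressed the lncRNA Dlx6-os1 and 3 controls. The labels describe a lentivirus carrying Dlx6-os1 or a vector without insert, whereas the study's methods describe an adenovirus and normal controls. The controls are titled WT, and control replicate 3 carries no genotype label. All samples come from a single cell line. The study states in general that its measurements came from distinct samples, such as independent experiments. It does not say for the RNA-seq in particular that replicates were separate cultures, so p-values measure only the spread between these samples.

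CD80 (B7-1), PD-L1 (encoded by Cd274) and B7-H3 (encoded by Cd276) belong to the B7 family of surface proteins. CD80 binds CD28, which lowers the threshold for T cell activation, and CTLA-4, which raises it, while PD-L1 binds PD-1 and restrains T cells. CD80 and PD-L1 can also bind each other on the same membrane. VCAM-1 and ICAM-1 are adhesion molecules of the immunoglobulin superfamily that hold leukocytes through integrins. CD80 has been studied in podocytes in proteinuric disease, and NF-κB is a known activator of VCAM-1 transcription in endothelium stimulated by cytokines. Only mRNA was measured here, not surface protein.

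Cd80 and Cd274 are the B7 ligands that moved apart in these samples, so the 250 bases before their RefSeq start sites are printed here 5′ to 3′ on the plus strand of GRCm38.p6. Capitals mark the only matches to 5 motifs that were searched on both strands, namely the NF-kB consensus, AP-1 (TGANTCA), the GAS element (TTCNNNGAA), the IRF element (GAAA, NN and GAAA) and the GC box (GGGCGG). The Cd80 window is chr16:38458683-38458932 and the Cd274 window is chr19:29367188-29367437.
Cd80: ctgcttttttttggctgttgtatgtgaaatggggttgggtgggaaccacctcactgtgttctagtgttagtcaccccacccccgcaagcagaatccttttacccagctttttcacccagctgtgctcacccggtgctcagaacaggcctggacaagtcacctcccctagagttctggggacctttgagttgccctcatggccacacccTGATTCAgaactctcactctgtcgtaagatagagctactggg
Cd274: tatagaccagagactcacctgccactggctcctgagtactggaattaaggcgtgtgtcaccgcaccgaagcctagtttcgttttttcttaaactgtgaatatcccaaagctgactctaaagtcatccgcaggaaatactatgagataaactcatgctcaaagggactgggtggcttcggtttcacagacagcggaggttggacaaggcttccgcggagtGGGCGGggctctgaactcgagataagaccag
The Cd80 window held TGATTCA, a match to the AP-1 pattern as searched, TGANTCA with any middle base. It began 42 bases before the start site, and this loose pattern was present in 6.75% of 32851 promoter windows of the same length. A stricter AP-1 pattern was not searched. The Cd274 window held a GC box 31 bases before the start site, found in 32.74% of the windows. The NF-kB consensus, the GAS element and the IRF element, present in 3.9%, 7.02% and 2.98% of windows, had no match in either. These motifs were chosen with the expression values known, and a match is a description of the letters only. Of the 5 genes, 4 were matched in the promoter table, and Vcam1 is named only.

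As context, Pearson correlations of log2(FPKM + 1) were 0.965 to 0.98 between overexpression samples, 0.931 to 0.975 across the groups and 0.95 to 0.979 between controls. FPKM are fragment numbers scaled to transcript length and library size. The read depth behind them is unknown, so the number of reads behind a low FPKM value is unknown too. Of 15 podocyte markers 9 had values, and Nphs1, which encodes the defining slit diaphragm protein nephrin, had none. The podocyte marker sum was 606 to 676 FPKM in overexpression samples and 695 to 703 FPKM in controls. Within it, Kirrel alone had 30.0, 31.1 and 70.9 FPKM in overexpression samples, against 134, 131 and 119 FPKM in controls. Of the 9 markers, 3 had a log2 difference above 0, so the sum does not stand for every marker. Overexpression replicate 3 stood apart in its tubule marker sum, which was 177 FPKM in that sample, up to 396 FPKM in its group and 429 to 653 FPKM in controls. Values without that sample are given where it changed the call of a named gene. Control replicate 3 had 86.7 FPKM of Acta2, smooth muscle actin, against 6.06 to 6.86 FPKM in the other controls.

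Cd80, the T cell costimulator, was higher with Dlx6-os1 overexpression. Its single listed transcript (Cd80-201; ENSMUSG00000075122.4, chromosome 16 of mm10, 38458933 to 38486933, plus strand, 5 exons) had 12.3, 9.21 and 13.6 FPKM in overexpression samples, against 7.81, 6.05 and 7.35 FPKM in controls. Every overexpression sample lay above every control, and replicate 2 was the lowest of each group. Cd80 averaged 11.7 ± 2.26 FPKM in overexpression samples and 7.07 ± 0.913 FPKM in controls (SD, n = 3 each), a ratio of 1.65. On the log2(FPKM + 1) scale, which understates the change of low genes, the difference was 0.64 with a standard error of 0.19 and a 95% interval of 0.20 to 1.09. It passed the thresholds the study used, which are a fold over 1.5 and an unadjusted p under 0.05, here from limma and at a fold of 1.56. It did not pass after Benjamini-Hochberg adjustment over all genes (limma adjusted p = 0.455). The fold fell under 1.5 when overexpression replicate 3 was left out (log2 difference 0.54) or control replicate 2 (0.55). In bulk samples, fewer cells with a transcript and less of it per cell cannot be told apart.

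Cd274, which encodes the inhibitory ligand PD-L1, was lower with overexpression. Cd274-001 (ENSMUSG00000016496.7, chromosome 19, 29367455 to 29388095, plus strand, 7 exons) had 3.45, 3.23 and 2.29 FPKM in overexpression samples, against 8.40, 4.74 and 4.09 FPKM in controls. The groups did not overlap, but control replicate 1 stood well above the other controls. The Cd274 means were 2.99 ± 0.616 FPKM in overexpression samples and 5.74 ± 2.32 FPKM in controls (SD, n = 3 each), a ratio of 0.521. The log2 difference was -0.72 with a standard error of 0.26 and a 95% interval of -1.31 to -0.12 (limma adjusted p = 0.496), so Cd274 passed the study's thresholds and not the adjusted one. Without control replicate 1 the difference was -0.45, and without overexpression replicate 3 it was -0.58, and in both cases the call was lost. An antisense gene, AC119228.1, overlaps the span of Cd274, and it is not stated whether reads were counted by strand.

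Cd276, which encodes B7-H3, was the most abundant B7 ligand and did not pass the test. Its 2 transcripts summed to 18.7, 19.0 and 13.6 FPKM in overexpression samples, against 16.5, 21.0 and 20.7 FPKM in controls. The groups overlapped, since control replicate 1 lay below overexpression replicates 1 and 2. Cd276 averaged 17.1 ± 3.01 FPKM in overexpression samples and 19.4 ± 2.52 FPKM in controls (SD, n = 3 each). The log2 difference was -0.18 with a 95% interval of -0.60 to 0.24 (limma adjusted p = 0.811), an interval that includes 0.

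Nearly all of the Cd276 signal was assigned to Cd276-202 (ENSMUSG00000035914.10, chromosome 9, 58524302 to 58555132, minus strand). This transcript had 17.7, 17.9 and 13.6 FPKM in overexpression samples, against 15.7, 21.0 and 20.4 FPKM in controls. Cd276-201 (58524300 to 58540941, 7 exons), which has the same coding length of 948 bases, took 5.34%, 5.49% and 0.003% of the gene's FPKM in overexpression samples and 4.53%, 0.0042% and 1.51% in controls. The share of Cd276-201 was thus near 0 in a sample of each group, and the groups overlapped (log2 difference 0.28, 95% interval -0.58 to 1.13, limma adjusted p = 0.839). The transcripts share sequence, so how their reads were divided is uncertain. Gm10657, annotated on the opposite strand, overlaps the span of Cd276-202, and the same limit on strand applies as for Cd274.

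Vcam1, the ligand of integrins that pair Itgb1 or Itgb7 with Itga4, had the largest log2 difference of these 4 genes and was higher with overexpression. Vcam1-001 (ENSMUSG00000027962.14, chromosome 3, 116109949 to 116129688, minus strand, 9 exons) had 1.57, 2.25 and 3.55 FPKM in overexpression samples, against 0.238, 0.116 and 0.613 FPKM in controls. The lowest overexpression sample was above the highest control, and replicate 3 was the highest of its group in both. The Vcam1 means were 2.46 ± 1.00 FPKM in overexpression samples and 0.322 ± 0.259 FPKM in controls (SD, n = 3 each), a ratio of 7.64. The log2 difference was 1.37 with a standard error of 0.25 and a 95% interval of 0.79 to 1.94 (limma adjusted p = 0.307). It passed the study's thresholds with any single sample left out, at 1.15 to 1.56. Because the control values are close to 0, its size depends on the constant added, and it was 1.84 with 0.5 FPKM and 2.70 with 0.1 FPKM in place of 1.

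Vcam1 entered the table only through its overexpression group. The table holds transcripts with a mean of at least 0.5 FPKM in 1 or both groups, and the Vcam1 control mean was under this, so a Vcam1 present in the table had to differ. The antisense gene Gm43109 overlaps its span, and the same limit on strand applies as for Cd274.

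**Figure D1:**
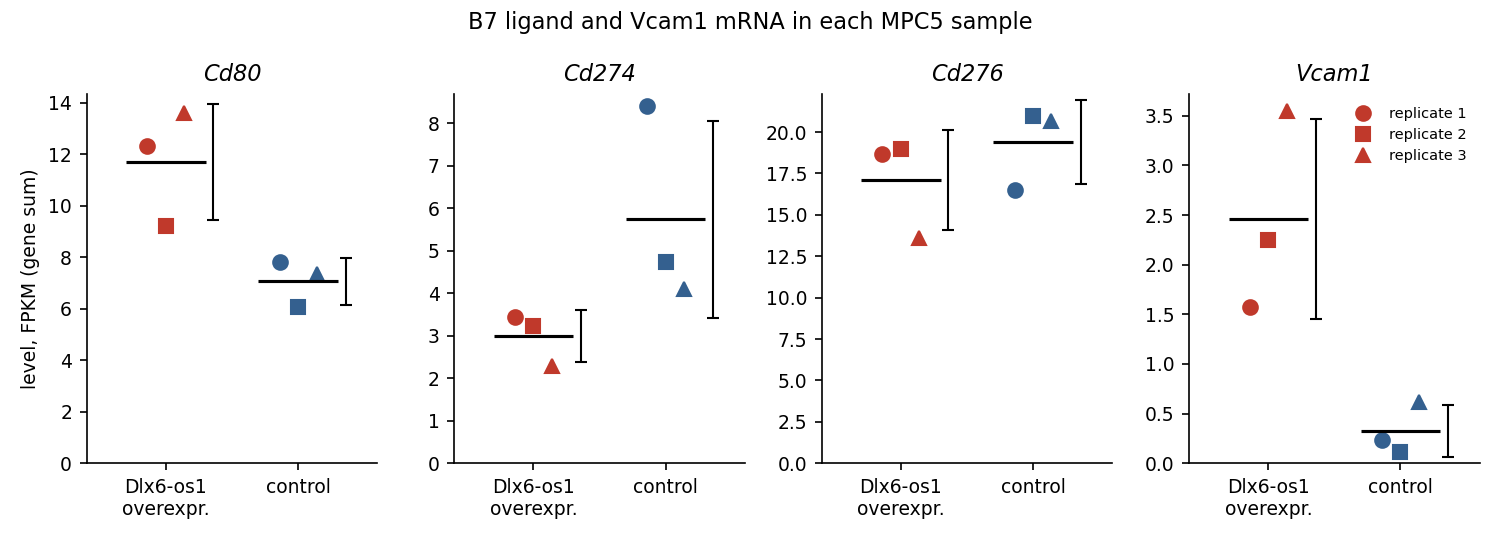
Level of Cd80, Cd274, Cd276 and Vcam1 mRNA (FPKM, summed over transcripts, linear axes from 0 that differ between panels) in the 3 Dlx6-os1 overexpression samples (red, left) and 3 controls (blue, right). Horizontal bars are means, whiskers are 1 SD, and marker shape gives the replicate number; Cd80 and Vcam1 samples lie higher and Cd274 samples lower with overexpression, while the Cd276 groups overlap.

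Of the 4 genes with values, 2 were higher and 1 was lower at the study's thresholds. Over all 11308 genes, 4.72% passed these thresholds, 2.49% as higher and 2.23% as lower. Groups did not overlap for 3 of the 4 genes, and for 16.3% of all genes. None (0 of 4) passed an adjusted p under 0.05 in limma, while 3 of 4 had an unadjusted p under 0.05, beside 9.16% of all genes. Over all genes, 0.0354% passed the adjusted threshold. The counts over these 4 genes include Vcam1, which the filter of the table let in through its high group, and are a description. In the fit of single transcripts, 3 of 5 passed the study's thresholds, beside 5.57% of all transcripts. Without overexpression replicate 3, 1 of the 4 genes (Vcam1) and 1 of the 5 transcripts passed, and 1 transcript passed without overexpression replicate 1 or control replicate 2. Cd80-201, Cd274-001 and Vcam1-001 were the 3 called with all samples, with limma adjusted p of 0.643, 0.654 and 0.485.

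**Figure D2:**
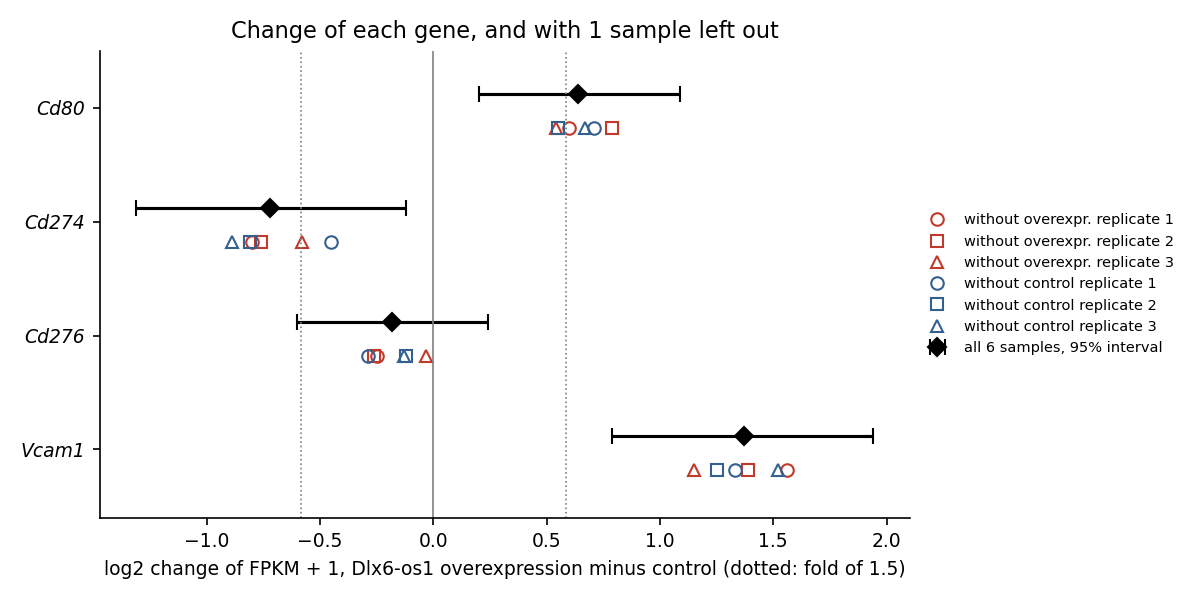
Difference of log2(FPKM + 1), Dlx6-os1 overexpression minus control, for each gene with values: black diamonds with 95% intervals use all 6 samples, and open symbols leave out the sample named in the legend. Dotted lines mark a fold of 1.5; Vcam1 lies beyond it throughout (1.15 to 1.56), Cd80 (0.54 to 0.79) and Cd274 (-0.89 to -0.45) cross it, and Cd276 (-0.29 to -0.03) stays inside.

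The order of the 4 levels differed between samples in its middle ranks. Cd276 was the highest in all 6 samples, but in overexpression replicate 3 it and Cd80 both had 13.6 FPKM. Cd80 exceeded Cd274 in every overexpression sample without overlap between the genes, whereas in the controls their ranges overlapped and control replicate 1 had more Cd274 than Cd80. Vcam1 was the lowest except in overexpression replicate 3, where it exceeded Cd274. By mean FPKM, Cd80 was higher than 48.7% of genes in overexpression samples and 34.8% in controls, and Cd274 was higher than 17.0% in overexpression samples and 29.6% in controls. Vcam1 stood above 14.4% of genes in overexpression samples and 1.0% in controls.

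Since CD80 and PD-L1 can pair on a membrane, the ratio of their mRNAs was taken in each sample, a measure chosen after the values were seen. Cd80 over Cd274 was 3.57, 2.85 and 5.94 in overexpression samples, against 0.93, 1.28 and 1.80 in controls. The ratios did not overlap, and the mean log2 ratio was 1.97 (SD 0.54) in overexpression samples and 0.37 (SD 0.48) in controls, a difference of 1.61. This ratio is taken within a sample and so does not depend on the scaling between samples. It restates the values above and was not tested.

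Among the other B7 ligands, Icosl was the only further gene with values, and Cd86, Pdcd1lg2, Vtcn1 and Vsir had none. Icosl, the ligand of the T cell costimulator ICOS, had 5.88, 4.94 and 4.92 FPKM in overexpression samples, against 5.25, 5.76 and 6.29 FPKM in controls. These groups overlapped (log2 difference -0.12, 95% interval -0.50 to 0.27, limma adjusted p = 0.882). For the 4 B7 ligands with values the median log2 difference was -0.15, against 0.03 over all genes. The receptors Cd28, Ctla4, Icos and Pdcd1, which T cells carry, had no values (0 of 4).

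Of 22 other costimulatory and inhibitory ligands, 11 had values, 1 was lower and 0 were higher, beside 2.23% and 2.49% of all genes. The lower gene was Tnfsf9, which encodes the costimulatory ligand 4-1BBL. It had 10.7, 7.09 and 6.62 FPKM in overexpression samples, against 16.5, 15.7 and 13.7 FPKM in controls (log2 difference -0.86, limma adjusted p = 0.412). Like Cd274, Tnfsf9 was lower in every overexpression sample than in any control, and it kept its call with each sample left out. Pvr, chosen after its values were seen, had 15.2, 13.5 and 12.6 FPKM in overexpression samples, against 19.6, 19.0 and 19.1 FPKM in controls. Its log2 difference was -0.46 (limma adjusted p = 0.471), with an unadjusted p under 0.05 in limma but a fold under 1.5. Of the 11 genes, 6 had a log2 difference above 0.

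Beside Vcam1, 7 of the 19 leukocyte adhesion ligands listed had values. Selplg alone of these 7 passed the thresholds, which 4.72% of all genes passed. Selplg, which encodes the P-selectin ligand PSGL-1 known mainly from leukocytes, had 0.738, 0.575 and 2.33 FPKM in overexpression samples, against values of 0, 0.0352 and 0.0751 FPKM in controls. Like Vcam1, Selplg had a control mean under 0.5 FPKM and was highest in overexpression replicate 3 (log2 difference 1.01, limma adjusted p = 0.443). The log2 differences of the other 6 ran from -0.21 for F11r and Jam3 to 0.31 for Icam5, so the list's median of 0.01 lay close to the 0.03 of all genes. Podxl, a podocyte surface sialomucin, was among them at -0.14.

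Integrin chains that bind VCAM-1, ICAM-1 and their relatives had values for 3 of 8 genes, and 0 passed, beside 4.72% of all genes. Itgb1, a partner of Itga4, had 260, 226 and 191 FPKM in overexpression samples, against 357, 219 and 274 FPKM in controls (log2 difference -0.31, limma adjusted p = 0.696). Itga9, whose product also binds VCAM-1, had a log2 difference of -0.17. Itgb2, a chain restricted largely to leukocytes, had 0.736, 0.563 and 2.65 FPKM in overexpression samples, against 0.0731, 0.310 and 0.603 FPKM in controls, and the groups overlapped (0.71, limma adjusted p = 0.568). Itgb2 passed the thresholds without overexpression replicate 1 (0.86), overexpression replicate 2 (0.94) or control replicate 3 (0.86), with a pseudocount of 0.1 FPKM (1.64) and with TPM (1.17). Like Vcam1, Itgb2 had a control mean under 0.5 FPKM and entered the table only through its overexpression group. Itga4, Itgb7, Itgal, Itgam and Itgax had no values.

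All 8 genes listed as anchoring, stability or shedding partners had values, and 1 was higher, beside 2.49% of all genes. Mmp9, a secreted gelatinase, had 1.00, 1.17 and 2.50 FPKM in overexpression samples, against 0.129, 0.204 and 0.284 FPKM in controls (log2 difference 1.04, limma adjusted p = 0.399), again with a control mean under 0.5 FPKM. Cmtm6, which keeps PD-L1 at the cell surface, had a log2 difference of -0.13 with a 95% interval of -0.48 to 0.22. Adam17, a protease that sheds VCAM-1, had 2.95, 15.6 and 4.34 FPKM in overexpression samples, against 1.40, 1.24 and 11.8 FPKM in controls. The spread of Adam17 within each group was wide, and its log2 difference of 0.78 did not pass (limma adjusted p = 0.79). Without control replicate 3, 2 genes of this list passed, beside 692 of 11269 of all genes.

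Regulators in the NF-κB, IRF and STAT families, which act upstream of several of these ligands in other cells, had values for 17 of 17 genes. At the study's thresholds 3 were higher and 0 lower, beside 2.49% and 2.23% of all genes. The list's median log2 difference was 0.43, against 0.03 over all genes, and 15 of the 17 were above 0, beside 54.2% of all genes. Irf2, a repressor of interferon-responsive genes, had 16.3, 14.8 and 17.2 FPKM in overexpression samples, against 7.86, 8.89 and 7.84 FPKM in controls (log2 difference 0.90, limma adjusted p = 0.247). The groups were far apart for Irf2, with little spread inside either. The count of calls in this list was 7 without overexpression replicate 1 and 5 without control replicate 3. In these fits 787 of 11298 and 692 of 11269 of all genes were called, against 534 of 11308 with all samples. The list count was 2 without overexpression replicate 3 or control replicate 2 (387 of 11245 and 455 of 11294 of all genes). It was 1 without moderation of the variance (248 of 11308), where Nfkbia and Tnfaip3 lost their calls. In these fits the count over all genes moved the same way.

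Both other calls were on inhibitors of NF-κB that are themselves NF-κB targets. Nfkbia, encoding IκBα, had 37.2, 36.3 and 63.0 FPKM in overexpression samples, against 23.5, 25.6 and 32.8 FPKM in controls (log2 difference 0.68, limma adjusted p = 0.481). Tnfaip3, encoding A20, had 3.38, 4.84 and 4.16 FPKM in overexpression samples, against 3.32, 1.43 and 1.62 FPKM in controls (0.76, limma adjusted p = 0.481). Neither gene's groups overlapped, but for Tnfaip3 the lowest overexpression sample barely exceeded control replicate 1. Nfkbia lost its call without overexpression replicate 3 (0.43), control replicate 1 (0.59) or control replicate 2 (0.65), and Tnfaip3 without overexpression replicate 2 (0.66), control replicate 2 (0.60) or control replicate 3 (0.65). Nfkb2, Relb and Nfkbie, chosen after their values were seen, had log2 differences of 0.54, 0.43 and 0.57 with unadjusted p under 0.05 in limma and a fold under 1.5 with all samples. Nfkb2 passed both thresholds without overexpression replicate 1 (0.66), control replicate 2 (0.60) or control replicate 3 (0.64), and Nfkbie without overexpression replicate 1 (0.66), overexpression replicate 2 (0.62) or control replicate 3 (0.74), with TPM (0.64) and with the smaller pseudocounts (0.62 and 0.67). No gene of these lists passed an adjusted p under 0.05 in limma.

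**Figure D3:**
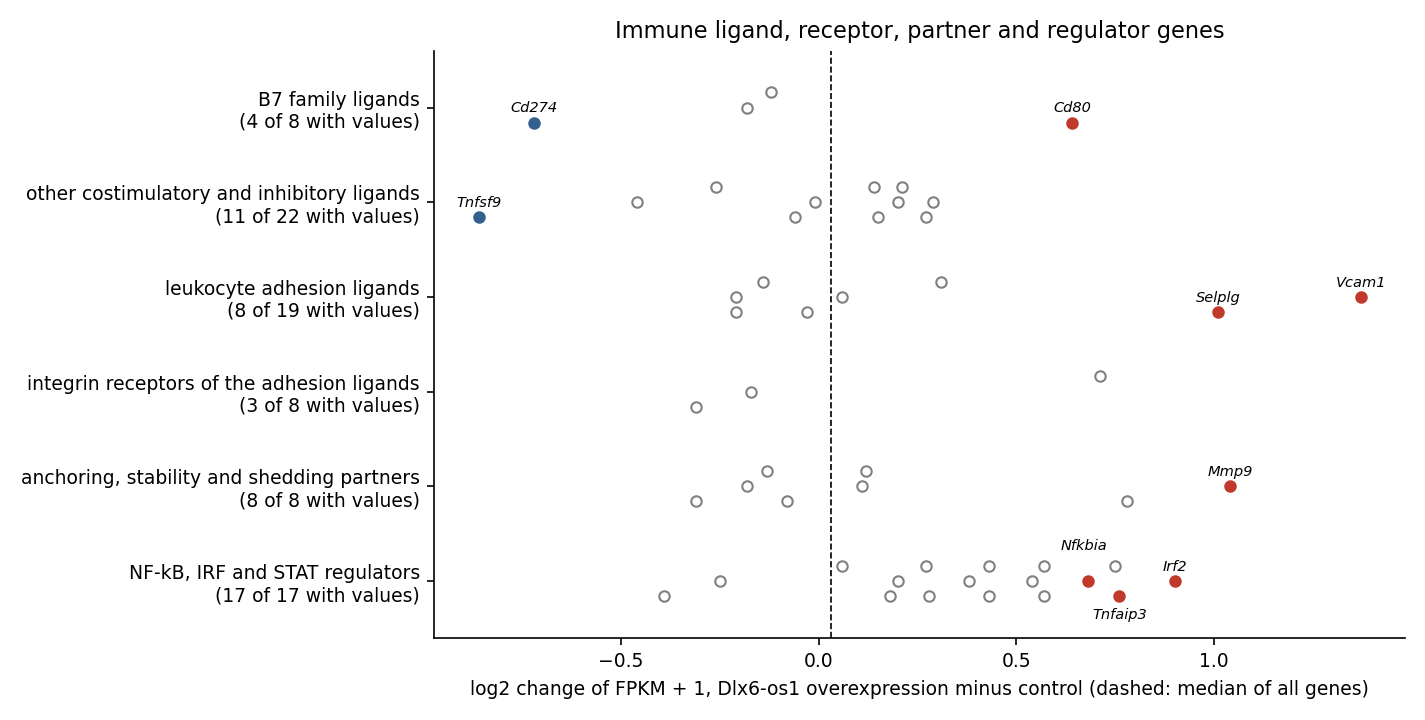
Difference of log2(FPKM + 1), Dlx6-os1 overexpression minus control, for each gene with values in 6 lists of ligands, receptors, partners and regulators. Filled and named points passed the study's thresholds (red higher, blue lower), open points did not, and the dashed line is the median of all genes, 0.03; in the regulator list 15 of 17 genes lie above 0, beside 54.2% of all genes.

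Markers of other cells that carry these ligands were measured beside them. Of 20 leukocyte markers 3 had values (Cd68, Csf1r and Cd14), their sum was 20.1 to 21.7 FPKM in overexpression samples and 25.3 to 33.2 FPKM in controls, and Ptprc, Cd3e, Itgam and Adgre1 had none. Of these 3, 1 was lower, beside 2.23% of all genes. This was Cd14, a coreceptor for bacterial lipopolysaccharide (log2 difference -0.74, limma adjusted p = 0.425), a call lost without control replicate 2 (-0.55). Cd68, a macrophage lysosomal protein gene, had 7.21, 4.60 and 8.55 FPKM in overexpression samples, against 5.11, 4.97 and 6.82 FPKM in controls, with overlapping groups (0.21). Of 12 endothelial markers only Ehd3 had values (1.80 to 2.40 FPKM in overexpression samples and 2.62 to 2.80 FPKM in controls), and Pecam1, Cdh5 and Kdr, which define endothelium, had none. Itgb2 and Selplg, named above, had control means under 0.5 FPKM and could enter the table only by being higher with overexpression. Their direction was set by the filter and is not compared with that of the leukocyte markers. Whether leukocyte content differed was not tested, and a single endothelial marker was measured.

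Other kidney markers moved with the groups as well. Of 12 tubule markers 4 had values, and 3 of them (Cdh16, Aqp1 and Lrp2) were lower with overexpression, beside 2.23% of all genes. Their limma adjusted p were 0.455, 0.494 and 0.496. The levels of these 3 were lowest in overexpression replicate 3, the sample with the highest Cd80 and Vcam1 and the lowest Cd274. Of 12 fibroblast and mesangial markers 5 had values, and the sum was 13.1 to 20.8 FPKM in overexpression samples and 22.6 to 104 FPKM in controls. The 104 FPKM was in control replicate 3, where Acta2 alone had 86.7 FPKM. Of these 5 markers only Gata3 passed, as lower (log2 difference -1.09, limma adjusted p = 0.352), beside 2.23% of all genes. Lrp2 lost its call without overexpression replicate 3 (log2 difference -0.42, against -0.74 with all samples) or control replicate 1 (-0.60), and Aqp1 (-1.41) without control replicate 1 (-1.36) or control replicate 2 (-1.23). Of the 9 podocyte markers with values, 2 were lower, beside 2.23% of all genes. These were Kirrel (-1.63, limma adjusted p = 0.307) and Plce1 (-0.62, limma adjusted p = 0.516). Plce1 lost its call without overexpression replicate 3 (-0.37), control replicate 1 (-0.54) or control replicate 2 (-0.65), and with TPM (-0.82). The calls of Plce1, Cdh16, Aqp1 and Lrp2 were also lost without moderation of the variance. The part of these shifts in the Cd80, Cd274 and Vcam1 differences was not tested.

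The genes most like Cd80 and Vcam1 were sought by the root mean square difference of log2(FPKM + 1) over the 6 samples, each gene centred on its own mean, among the 10645 genes that averaged 1 FPKM or more. Closest to Cd80 were Tlr3, a receptor for double-stranded RNA, at 0.076, Gen1, a nuclease that resolves DNA crossovers, at 0.08, and Gja1, a gap junction protein gene, at 0.085, against a median of 0.422 over genes. Tlr3 had 5.11, 3.89 and 5.80 FPKM in overexpression samples, against 3.19, 2.55 and 3.48 FPKM in controls. Cd80 and these 3 genes share the same order of overexpression samples, with replicate 2 the lowest and replicate 3 the highest.

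Closest to Vcam1 were the histone genes Hist1h2bj at 0.137, Hist1h1a at 0.139 and Hist1h2ac at 0.147, against a median of 0.763. Hist1h1a had 2.26, 2.68 and 5.56 FPKM in overexpression samples, against 0.388, 0.571 and 1.09 FPKM in controls. Like Vcam1, all 3 were highest in overexpression replicate 3. Histone genes have near-identical copies, so the assignment of their reads is uncertain. These are descriptions of 6 samples that share their libraries, chosen as the closest of many genes.

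**Figure D4:**
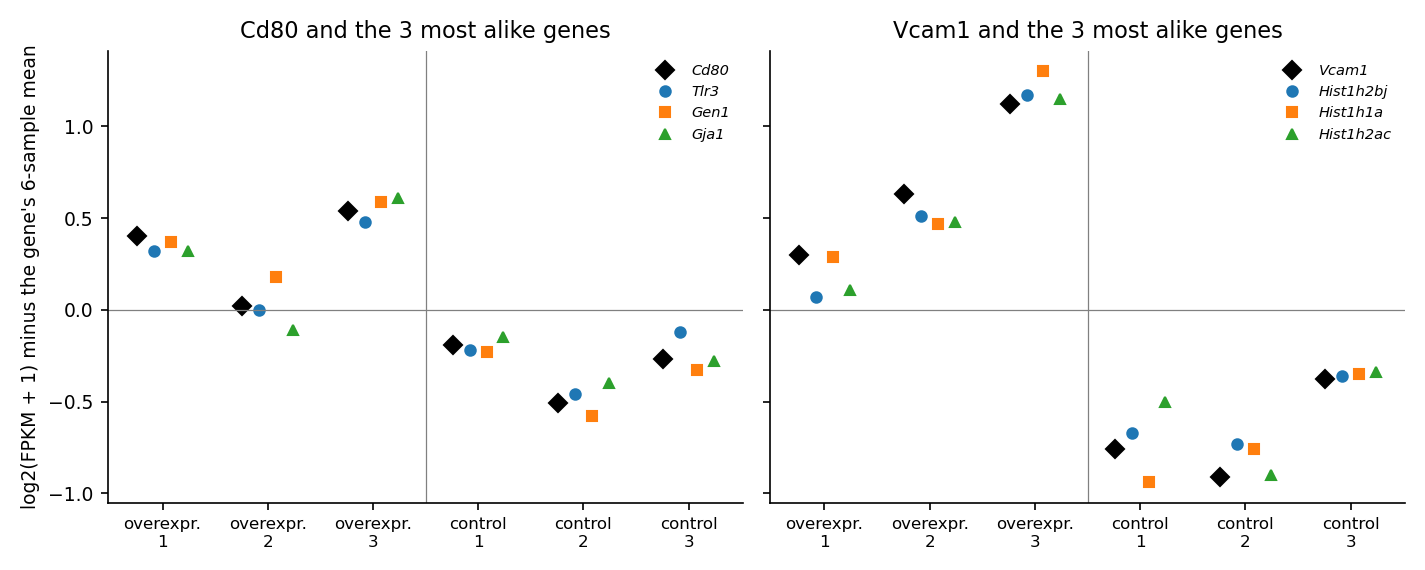
Level of Cd80 (left) and Vcam1 (right, both black diamonds) with the 3 genes of most similar profile, as log2(FPKM + 1) minus each gene's mean over the 6 samples, for the overexpression samples and then the controls. In each panel overexpression replicate 3 is the highest sample and control replicate 1 or 2 the lowest.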

How the data were processed

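RNA-seq of MPC5 podocytes gave 3 Dlx6-os1 overexpression and 3 control samples, grouped by their labels, and the sample descriptions gave the table column of each. The authors deposited FPKM for protein-coding transcripts, which are scaled to transcript length and to mapped fragments. The submitters' notes list HISAT2, StringTie, FastQC and the build mm10, with neither versions nor an annotation release. The lowest larger group mean was 0.5001 FPKM, so the table had been filtered at 0.5. No steps worth 1 read were found, and depth is unknown, so precision rests on the spread between samples.

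FPKM were summed per gene symbol and moved to log2(FPKM + 1), and limma 3.58.1 (R 4.3.3, lmFit, then eBayes with trend) compared the groups in a two-sided test. Benjamini-Hochberg adjustment ran over all 11308 genes, and likewise over all transcripts. The model was tested on simulated data. Exact permutation of 3 against 3 cannot give a p below 0.1. Summed FPKM ran from 341945 to 371806 in overexpression samples and from 329402 to 371469 in controls. Exon counts and coding lengths came from GENCODE M21, and promoters from RefSeq.

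The members and lists were chosen with earlier results of these data known. Named were all members, every list gene at the study's thresholds (otherwise up to 3 per list with the smallest p) and the 3 profiles nearest to Cd80 and to Vcam1, and exceptions are marked. Alternatives tried were the replicate number as a block, leaving out each sample, TPM, median-centring, quantile normalization, pseudocounts of 0.5 and 0.1, a mean filter at 1 FPKM, no filter, no trend and no moderation. Dlx6-os1 itself was not analysed here.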

Additional observations from a re-analysis of the deposited data

How the results depend on the processing

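No difference of Cd80, Cd274, Cd276 or Vcam1 changed sign under any alternative, and Icam1 gave no value under any of them. Some alternatives could not change a sign. No filter repeated the main fit, because the table was already filtered at 0.5 FPKM. The balanced block, no trend and no moderation cannot change a log2 difference, only its p. Outside of left-out samples, the log2 difference was 0.60 to 0.71 for Cd80, -0.87 to -0.72 for Cd274, -0.22 to -0.18 for Cd276 and 1.33 to 2.70 for Vcam1, and the only call lost was Cd274 without moderation of the variance (-0.72). With 1 sample left out, the ranges were 0.54 to 0.79 for Cd80, -0.89 to -0.45 for Cd274, -0.29 to -0.03 for Cd276 and 1.15 to 1.56 for Vcam1. Of the 4 genes 1 to 3 were then called, and of their 5 transcripts 1 to 3. Of the 47 other list genes 5 to 11 were called, against 6 with all samples and 4 to 8 under the other alternatives. Over all genes, 4.72% were called with all samples. Without overexpression replicate 1 or control replicate 3 the list count was 11 or 10. In these fits 787 of 11298 or 692 of 11269 of all genes were called. Selplg and Mmp9, among the 6 called with all samples, had control means under 0.5 FPKM. They could enter the table only by being higher with overexpression. Over all alternatives the adjusted p in limma ran from 0.187 to 0.858 for Cd80, 0.218 to 0.896 for Cd274, 0.441 to 0.996 for Cd276 and 0.0737 to 0.851 for Vcam1.

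Over all genes, 534 passed the study's thresholds, 248 without moderation and 387 to 787 with 1 sample left out. Of the calls, 282 were higher and 252 lower, while median-centring gave 228 higher and 314 lower. At an adjusted p under 0.05 in limma there were 4 genes, and 0 to 10 under the alternatives.

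Whether the shared replicate numbers pair the samples was not settled. The deviations of same-numbered samples correlated at 0.287, 0.024 and 0.295, and those of differently numbered samples at -0.311 to 0.106. Overexpression replicate 2 correlated best with control replicate 1 (0.106). With the replicate number as a block, 643 genes were called. The balanced block cannot change a log2 difference, so those of the 4 genes were the same by design. Their calls (3 of 4) were as without the block, while 8 of the other list genes were called, Itgb2 (0.71) among them. Depth and strand use limit the low values, above all those of Vcam1 and Selplg in controls.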
